A study of Mus musculus with 8 samples.

Results

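The voltage-gated sodium and calcium channel subunits of the mouse heart are described here in 4 *Rnaseh1* knockout hearts (KO) and 4 wild type hearts (WT). The members were all protein-coding genes named Scn with a number and a or b, Cacna, Cacnb or Cacng, and 40 of the 54508 genes listed met this rule, with 20 pore subunits, 12 auxiliary subunits and 8 Cacng genes. KO mice carried *Rnaseh1* with exon 2 deleted in heart and skeletal muscle by a Cre driven by the muscle creatine kinase promoter, and the WT mice were labelled RNase H1+/+. All 8 mice were C57BL/6 mice of 24 weeks, and total RNA of heart tissue was sequenced as paired-end TruSeq libraries. The study's legends describe its controls as carrying floxed alleles without Cre, so an effect of Cre itself cannot be told apart from loss of RNase H1, and since the promoter is that of striated muscle, the deletion was not aimed at other cell types of the heart.

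Voltage-gated sodium channels open within moments of depolarisation and carry the upstroke of the cardiac action potential, while L-type calcium channels carry the plateau current that triggers contraction and T-type channels open near the resting potential. Each channel has a large pore subunit (alpha), which holds the voltage sensors and the ion path, and smaller auxiliary subunits, which set how many channels reach the membrane and how they gate. Sodium channels have beta subunits with a single membrane span, calcium channels have a cytosolic beta subunit and an extracellular alpha2delta subunit, and the Cacng genes encode a family that holds both channel subunits and partners of AMPA-type glutamate receptors.

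The libraries held 27429878 to 30505752 counted read pairs in KO and 31810103 to 40715847 in WT. Because mtDNA-encoded transcripts took 9.46% to 12.3% of the pairs in KO and 60.2% to 62.6% in WT, 24835342 to 27146119 pairs lay on nuclear genes in KO and 11896021 to 16213429 in WT, so rare channel transcripts were sampled more deeply in KO. Values are counts divided by the size factor of each library (normalised counts), and a log2 difference is KO minus WT on log2(normalised count + 1) with its standard error (SE). *Rnaseh1* counted over the whole gene stood at 145 to 182 in KO and 129 to 158 in WT (log2 difference 0.23, limma-trend adjusted p = 0.114). Such a count does not single out the deleted exon 2, so it does not check the label. By qPCR the paper reports a significant fall of *Rnaseh1* transcripts in its knockout hearts. These counts do not show that fall, and the reason was not tested. All 10 cardiomyocyte markers examined were lower in KO, with a median log2 difference of -1.61. In contrast, 6 of 6 macrophage markers and 5 of 8 fibroblast markers were higher. Among all genes tested below, 30.7% were higher and 28.4% lower. In RNA of whole tissue, fewer cells of a type and less RNA per cell cannot be told apart.

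Of the 40 members, 26 had a mean of at least 10 normalised counts over the 8 libraries and were tested with limma-trend beside all 17046 such genes (Benjamini-Hochberg adjusted p under 0.05). In KO, 5 members were higher and 13 lower, or 19.2% and 50% of those tested, against 30.7% and 28.4% of all genes tested (59.1% in either direction). The remaining 8 were not called. The median log2 difference was -0.55 over the tested members and 0.02 over all tested genes. Differences of at least 2-fold that passed the test were found for 16 members (61.5%), against 22.3% of all genes, and the 4 KO libraries did not overlap the 4 WT libraries for 18 members (69.2%), against 54.7% of all genes (28.2% higher and 26.5% lower). *Cacng6* and *Cacna2d3* reached the mean of 10 only through WT, so they could enter the test only by being lower in KO.

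No test was made between roles, and their counts are descriptions. Among 13 tested pore subunits, 1 was higher and 7 were lower in KO, and the log2 differences ran from -3.97 to 0.31. Among 11 tested auxiliary subunits, 4 were higher and 5 lower, and the differences ran from -3.71 to 2.74 with a median of -0.22. Of the 2 tested Cacng genes, 1 was lower, namely *Cacng6*, which could enter the test only by being lower. All 4 members that were at least 2-fold higher encode auxiliary subunits. Those at least 2-fold lower came from each of the 3 roles, with *Cacng6* alone for the Cacng role.

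The scale between libraries bears on every direction given here. With the size factors 52% of all calls were higher in KO. Equal totals of nuclear genes moved the median of all tested genes up by 0.23 (69.2% of calls higher), and equal library totals, in which mtDNA transcripts count, moved it up by 1.42 (96.3% higher). Relative to these shifts all 18 called members kept their call and direction. Taking out the shift returns the median of all genes to that under the size factors, so this outcome does not test the scale. Read without the shift, equal library totals kept the call and direction of 13 of the 18 members and the direction of 16. That setting gave 15 members higher and 8 lower, and *Cacna1c* (0.28) turned to higher in KO.

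**Figure D1:**
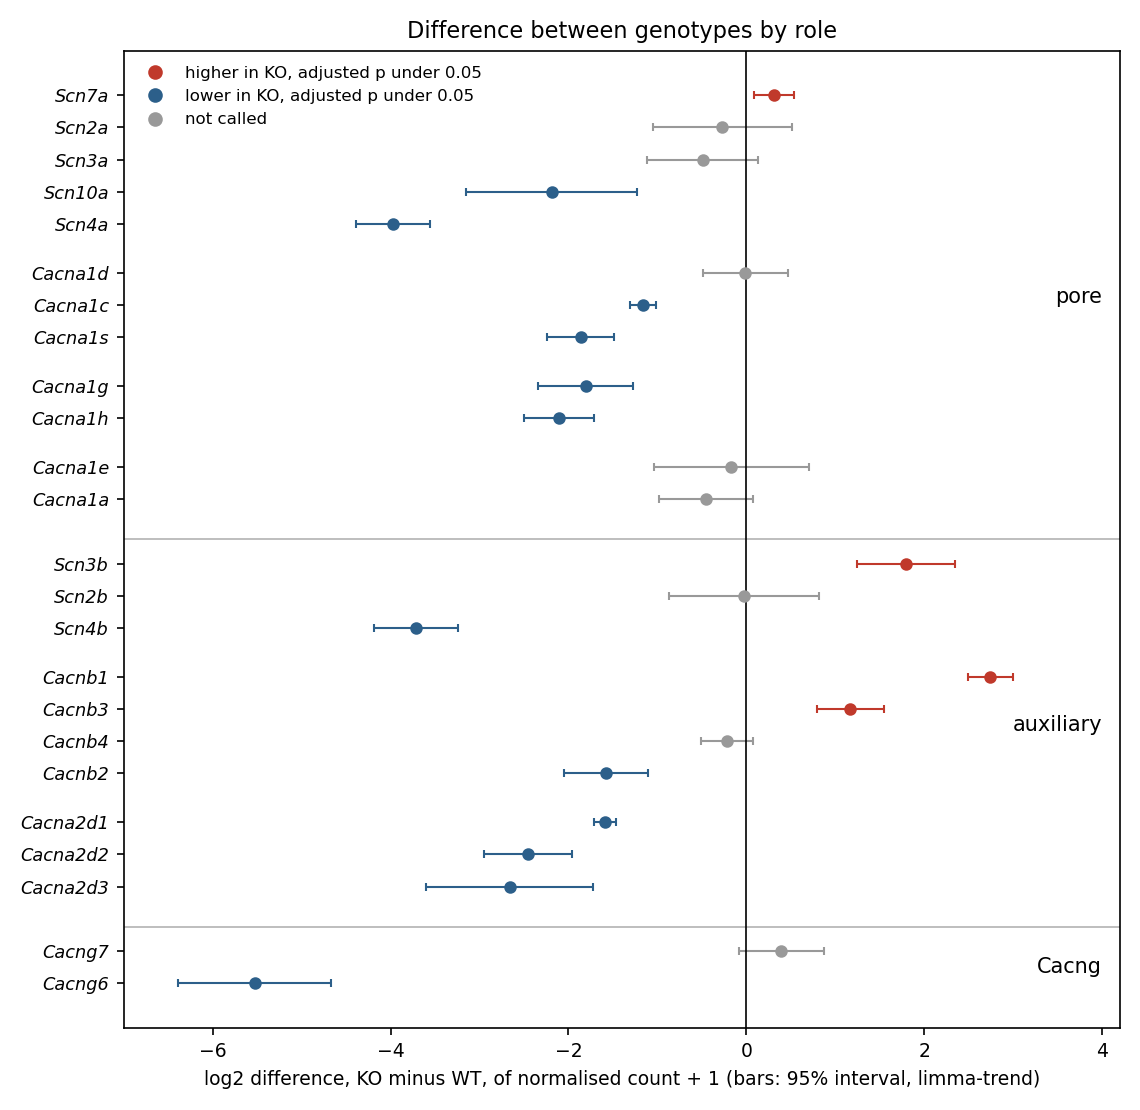
Log2 difference (KO minus WT, normalised count + 1) of 24 tested members by role, with 95% intervals from limma-trend (n = 4 libraries per genotype). The pore subunits lie at or left of 0 except for *Scn7a* at 0.31, and the auxiliary subunits spread from -3.71 to 2.74. With equal library totals in place of the size factors, without taking the shift of all genes into account, *Cacna1c* would lie right of 0.

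The calcium channel beta subunits gave the largest rise among the members, so the sequences before start sites of *Cacnb1*, which rose, and of *Cacnb2*, which fell, are shown. *Cacnb1* lies on chromosome 11 of GRCm38 (98001508 to 98023034, minus strand) and *Cacnb2* on chromosome 2 (14603088 to 14987908, plus strand). The windows are from RefSeq (GRCm38.p6), 5′ to 3′ on the strand of the gene, and end at a RefSeq start site or at the first base that GENCODE M21 annotates as exon. They lie inside the annotated span of their gene and outside its exons, and capitals mark CpG dinucleotides.
Cacnb1, chr11:98022635-98022877, minus strand: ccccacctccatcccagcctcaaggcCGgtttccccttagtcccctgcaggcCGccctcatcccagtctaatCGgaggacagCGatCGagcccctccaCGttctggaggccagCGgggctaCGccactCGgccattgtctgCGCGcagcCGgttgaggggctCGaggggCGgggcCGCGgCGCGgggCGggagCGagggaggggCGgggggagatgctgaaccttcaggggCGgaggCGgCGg
Cacnb1, chr11:98018373-98018622, minus strand: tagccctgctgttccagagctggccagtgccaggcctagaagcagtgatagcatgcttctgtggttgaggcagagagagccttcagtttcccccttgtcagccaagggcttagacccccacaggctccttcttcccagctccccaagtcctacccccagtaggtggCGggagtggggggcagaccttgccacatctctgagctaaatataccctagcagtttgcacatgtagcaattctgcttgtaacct
Cacnb2, chr2:14823842-14824025, plus strand: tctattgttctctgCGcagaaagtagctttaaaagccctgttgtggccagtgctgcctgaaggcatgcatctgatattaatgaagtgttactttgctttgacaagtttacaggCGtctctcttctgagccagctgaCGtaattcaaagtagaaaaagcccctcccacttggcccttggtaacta
The upstream window of *Cacnb1* held 24 CpG in 243 bases, its other window held 1 in 250 bases, and the *Cacnb2* window shown held 3 in 184 bases. A second *Cacnb2* window, not shown, held 30 in 250 bases, so each gene had a CpG-rich and a CpG-poor window. Over 32851 promoters of 250 bases the median was 6.

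*Cacnb1* encodes the beta subunit best known as the partner of the skeletal muscle calcium channel. It had 1080, 937, 1009 and 1222 normalised counts in KO, against 140, 189, 153 and 150 in WT. Every KO library was far above every WT library, and the mean reached 673% of the WT mean (log2 difference 2.74 ± 0.11 (SE), limma-trend adjusted p = 2.11e-08). *Cacnb2*, the main beta subunit of the adult heart, had 647, 859, 1589 and 988 in KO, against 2986, 2908, 2707 and 2964 in WT. The groups were separate, with KO replicate 3 nearest to WT, and the log2 difference was -1.58 ± 0.21 (limma-trend adjusted p = 9.84e-05). *Cacnb3*, a beta subunit of neurons and smooth muscle, had 199, 182, 162 and 175 in KO, against 90.2, 85.0, 55.6 and 91.5 in WT. All KO libraries were above all WT libraries (1.17 ± 0.17, adjusted p = 0.000161, limma-trend). *Cacnb4*, a brain beta subunit, ranged from 60.6 to 72.5 in KO and from 74.2 to 81.2 in WT. These groups did not overlap either, but the difference missed the threshold (-0.22, 95% interval -0.51 to 0.07, limma-trend adjusted p = 0.176).

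Divided by the exonic length of each gene, *Cacnb1* made up 64.5% ± 5.52 of the calcium beta transcripts in KO and 12.4% ± 1.59 in WT (SD, n = 4). *Cacnb2* made up 21.0% ± 7.0 in KO and 77.5% ± 1.33 in WT. The most abundant beta subunit per kilobase was thus *Cacnb1* in each KO library and *Cacnb2* in each WT library. The sum of the 4 genes per kilobase was 364 ± 35.3 in KO and 282 ± 14.0 in WT, the only class sum above that of WT among the 8 classes summed. Both results depend on the exonic lengths used, 4.53 kb for *Cacnb1* and 13.2 kb for *Cacnb2*. In normalised counts not divided by length, *Cacnb2* (1589) exceeded *Cacnb1* (1009) in KO replicate 3. The undivided sum of the 4 genes was lower in every KO library than in every WT library.

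The sodium channel beta subunits also moved in both directions. The Scn3b protein binds the pore without a covalent link, whereas Scn2b and Scn4b are joined to it by a disulfide bond. *Scn4b* (chromosome 9, 45138395 to 45154152, plus strand) had 138, 98.9, 142 and 66.8 in KO, against 1335, 1426, 1264 and 1649 in WT. The KO mean was 7.86% of the WT mean, with all KO libraries far below WT (-3.71 ± 0.21, adjusted p = 1.68e-07, limma-trend).

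*Scn3b* had 82.8, 86.1, 47.6 and 63.7 in KO, against 25.6, 16, 20.1 and 15.5 in WT. It rose in all KO libraries from a low level (1.80 ± 0.25, adjusted p = 0.000124, limma-trend). *Scn2b*, which lies only 8.33 kb from *Scn4b*, ranged from 10.1 to 35.8 in KO and from 13.6 to 25.9 in WT. It was not called, and its interval is wide (log2 difference -0.02, 95% interval -0.86 to 0.82, limma-trend adjusted p = 0.962).

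**Figure D2:**
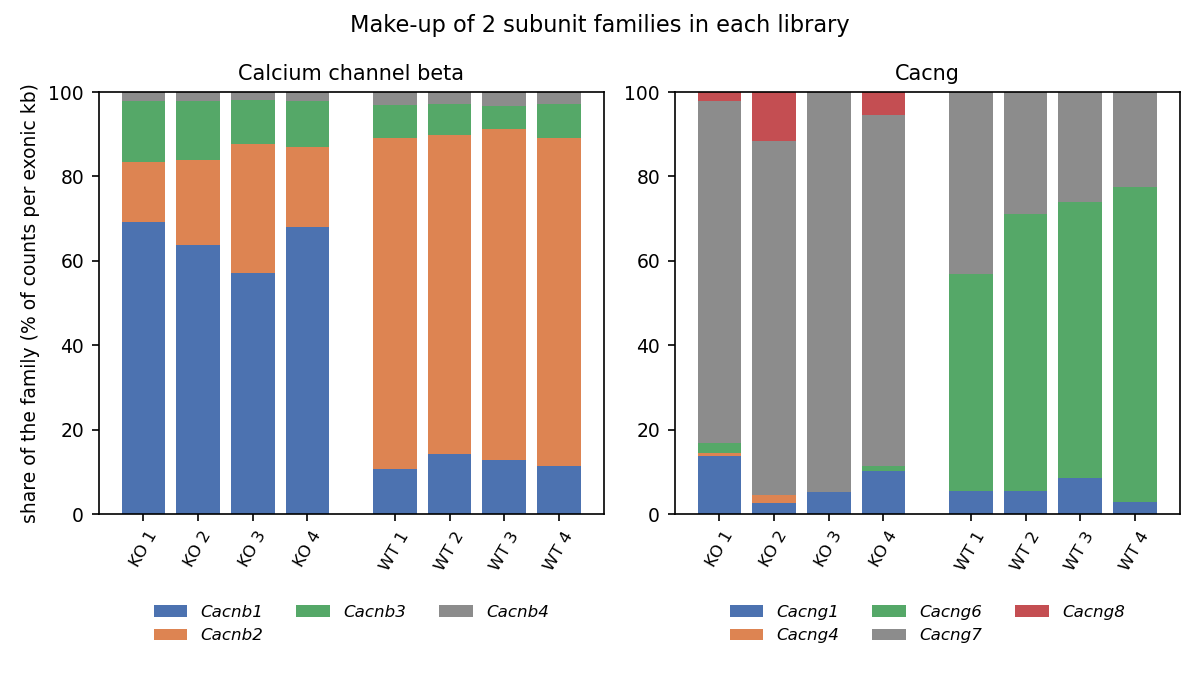
Share of each gene in its subunit family (y axis, % of normalised counts per exonic kilobase) in each library, for calcium channel beta and Cacng genes. Per kilobase, *Cacnb1* is the largest part in all KO libraries and *Cacnb2* in all WT libraries. Without division by length, *Cacnb2* exceeds *Cacnb1* in KO replicate 3. *Cacng6* is large in WT only (64.3% on average, against 0.939% in KO).

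Among the sodium channel pores, *Scn4a* and *Scn10a* were lower in KO under every scaling, although *Scn10a* did not pass with equal library totals without the shift. *Scn4a*, the sodium channel pore of skeletal muscle, had 82.8, 79.4, 142 and 75.0 in KO, against 1267, 1703, 1414 and 1436 in WT. The mean of the KO libraries was 6.52% of the WT mean, and KO replicate 3 stood above the other KO libraries (-3.97 ± 0.19, adjusted p = 4.6e-08, limma-trend). The summed level of the 10 skeletal muscle fibre markers was 65.4 to 106 in KO and 55.6 to 89.9 in WT, with *Myog* at 0 in every library. Those sums overlapped, but they pool markers that moved in opposite directions. Of 3 tested markers, *Tnnt3* was higher (2.43), *Tnni2* lower (-1.33) and *Atp2a1* not called (-0.39). Overlap of the sums therefore does not show that the single markers were unchanged. Among all genes tested, 30.7% were higher and 28.4% lower.

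*Scn10a*, a pore of sensory neurons, had 5.57, 8.75, 24.8 and 26.5 in KO, against 57.1, 66.5, 63.3 and 76.0 in WT. The KO libraries spread widely but all lay below WT (-2.19 ± 0.43, adjusted p = 0.00139, limma-trend). *Scn7a*, a sodium sensor of glia and other cells that opens with sodium concentration rather than with voltage, ranged from 1627 to 2336 in KO and from 1569 to 1664 in WT. KO replicate 1 lay within the WT range, and the small rise (0.31 ± 0.10, limma-trend adjusted p = 0.0227) lost its call when KO replicate 4 or WT replicate 1, 2 or 4 was left out, with adjusted p of up to 0.0656. The brain pores *Scn2a* and *Scn3a* were not called (limma-trend adjusted p = 0.54 and 0.156). *Scn2a* ranged from 13 to 42.5 in KO and from 29.4 to 45.1 in WT, and *Scn3a* from 45.1 to 121 in KO and from 79.4 to 128 in WT.

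Markers of nerve and glia did not move in 1 direction beside these genes. Among 4 tested neuron markers, *Uchl1* and *Tubb3* were higher and *Dbh* and *Stmn2* lower in KO, and *Dbh*, the noradrenaline-synthesising enzyme of sympathetic fibres, ranged from 3.26 to 7.66 in KO and from 63.9 to 113 in WT. The summed neuron markers stood at 2293 to 4025 in KO and 262 to 309 in WT, most of the KO sum being *Uchl1* (1910 to 3507). Schwann cell markers summed to 435 to 493 in KO and 591 to 637 in WT, with 2 of 6 tested markers lower. Among all genes tested, 30.7% were higher and 28.4% lower, so the Schwann cell count lies near that share. The part of nerve and glia in the values of *Scn10a* and *Scn7a* was not tested.

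**Figure D3:**
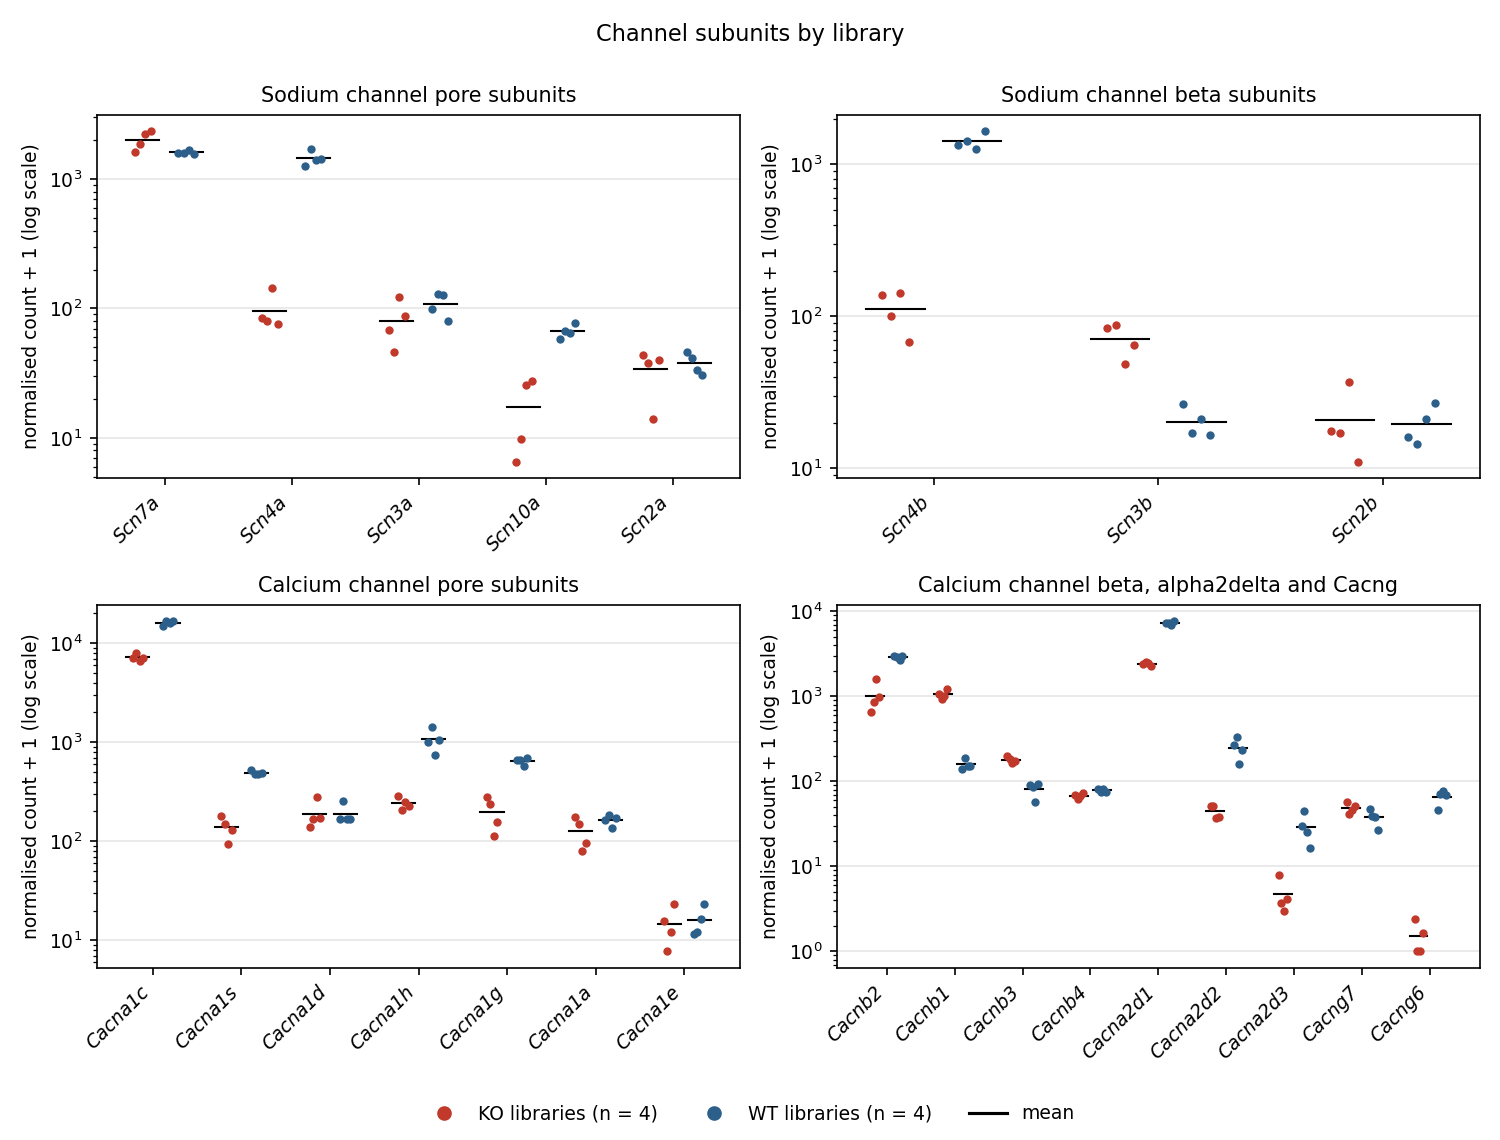
Normalised count + 1 (y axis, log scale) of 24 tested members in each library, KO left of WT, with 1 point per library and a line at the mean of 4. The *Cacnb1* and *Cacnb3* points of KO lie wholly above those of WT, and those of *Scn4a*, *Scn4b* and *Cacng6* wholly below.

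Of the 3 tested L-type calcium channel pores 2 fell, of which *Cacna1c* turned to higher under equal library totals without the shift. *Cacna1c* (chromosome 6, 118587240 to 119196418, minus strand), the L-type pore of working heart muscle, had 7118, 7887, 6629 and 7067 in KO, against 15052, 16658, 15845 and 16646 in WT. All KO libraries were below WT, at 44.7% of its mean (-1.16 ± 0.06, adjusted p = 1.42e-07, limma-trend). *Cacna1s*, the voltage sensor of skeletal muscle, had 181, 148, 93.8 and 131 in KO, against 522, 479, 476 and 492 in WT. It was lower in every KO library (-1.86 ± 0.17, adjusted p = 5.27e-06, limma-trend), and *Cacna1c* held 90.3% ± 0.807 of L-type transcripts per kilobase in KO and 89.4% ± 0.644 in WT. *Cacna1d*, the L-type pore of the sinoatrial node and atria, had 139, 168, 278 and 171 in KO, against 165, 251, 165 and 166 in WT. The groups overlapped, with KO replicate 3 and WT replicate 2 above the others (log2 difference -0.01, 95% interval -0.49 to 0.47, limma-trend adjusted p = 0.974).

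Both tested T-type pores, known from pacemaker tissue and the fetal heart, were lower in KO. *Cacna1g* had 279, 236, 111 and 156 in KO, against 663, 664, 572 and 694 in WT. *Cacna1h* had 287, 205, 250 and 224 in KO, against 1015, 1437, 749 and 1064 in WT. Neither gene overlapped between the groups, with log2 differences of -1.81 ± 0.24 for *Cacna1g* and -2.11 ± 0.18 for *Cacna1h* (limma-trend adjusted p = 9.06e-05 and 2.84e-06). Of the pores of neuronal high-voltage channels, *Cacna1a* ranged from 79.5 to 176 in KO and 136 to 184 in WT and *Cacna1e* from 6.73 to 22.1 in KO and 10.5 to 22.4 in WT. Neither was called (limma-trend adjusted p = 0.124 and 0.734).

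The alpha2delta subunits, which anchor outside the membrane and raise the number of calcium channels at the surface, were lower in all 3 tested genes. Of these, *Cacna2d3* could enter the test only by being lower, because it reached the mean of 10 only through WT. *Cacna2d1*, the abundant form in heart, had 2391, 2532, 2466 and 2260 in KO, against 7228, 7264, 6844 and 7678 in WT. The spread within each genotype was small, and KO stood at 33.3% of the WT mean (-1.59 ± 0.06, adjusted p = 9.6e-09, limma-trend). *Cacna2d2* had 50.8, 50.5, 36.5 and 37.2 in KO, against 266, 336, 161 and 233 in WT. *Cacna2d3* had 6.96, 2.69, 1.95 and 3.15 in KO, against 28.6, 44.4, 24.7 and 15.5 in WT. Both are best known from the nervous system, and both lay wholly below WT (-2.45 ± 0.22 for *Cacna2d2* and -2.66 ± 0.42 for *Cacna2d3*, limma-trend adjusted p = 5.2e-06 and 0.000315).

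Markers of atrial muscle also differed between the groups and among the WT libraries. Of 5 atrial markers, 4 (*Myl7*, *Kcnj3*, *Sln* and *Myl4*) were lower in KO, and their sum with *Bmp10* was 7988, 11788, 6419 and 7383 in KO, against 19451, 30536, 16015 and 20380 in WT. *Bmp10* went the other way and was not called (0.91, limma-trend adjusted p = 0.127). It had 5228, 7485, 4274 and 4504 in KO, most of each KO sum, against 3507, 6498, 884 and 2966 in WT. The sum therefore shows a smaller fall than those 4 markers. WT replicate 2 had the highest sum in WT and also the highest *Cacna1d*, *Cacna1h*, *Cacna2d2* and *Cacna2d3*, while WT replicate 3 had the lowest sum, the lowest *Cacna1h* and the lowest *Cacna2d2*. *Cacna2d3* was lowest in WT replicate 4. *Cacna1c* was also highest in WT replicate 2 (16658), close to WT replicate 4 (16646), and lowest in WT replicate 1 (15052). These extremes were not particular to the genes named. WT replicate 2 was the highest WT library for 9 of 26 tested members, *Scn4a* and *Cacnb1* among them, and WT replicate 3 the lowest for 10. In KO, replicate 2 had the highest sum but the lowest *Cacna1h* (205). *Cacna1d* was highest (278) in KO replicate 3, which had the lowest sum. Pacemaker and conduction markers summed to 311 to 441 in KO and 813 to 1102 in WT. Of these, 3 of 4 tested were lower, beside 28.4% of all genes tested. How much atrial tissue each sample held is not given in the sources used here, and its part in these differences was not tested.

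**Figure D4:**
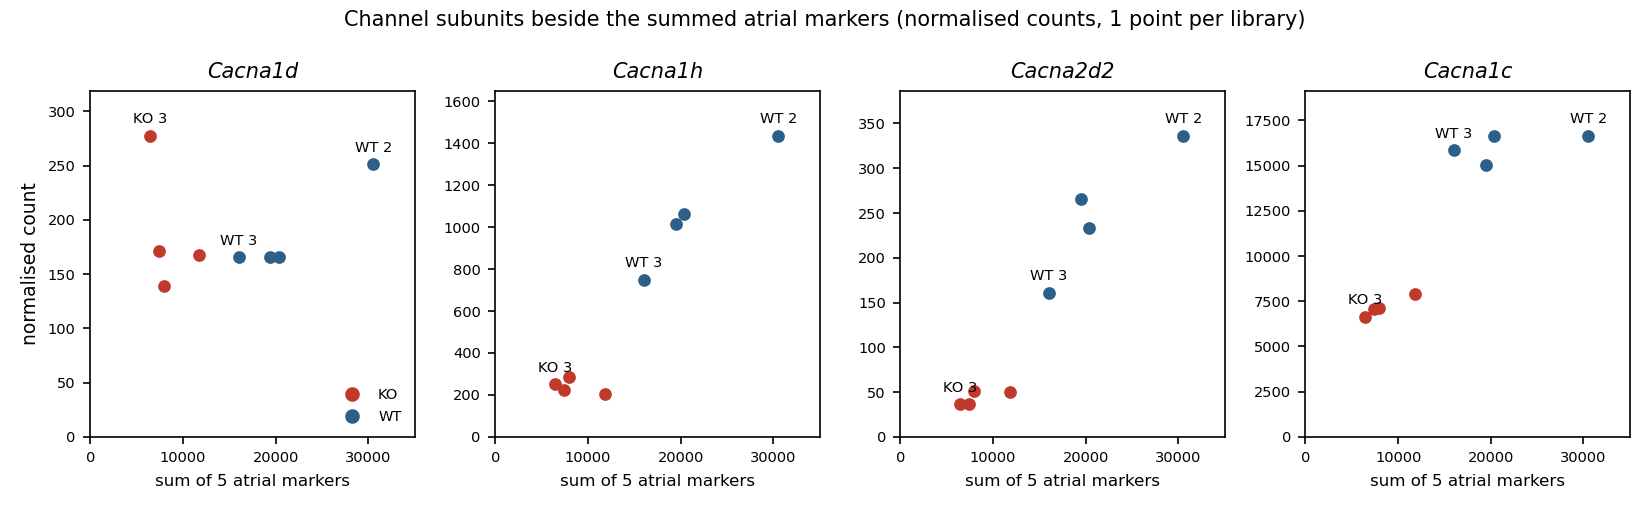
Normalised counts of 4 calcium channel subunits (y axes) against the summed normalised counts of 5 atrial markers (x axis), with 1 point per library, KO in red and WT in blue. The genes plotted were chosen after their values were seen. *Bmp10*, which was not called, makes up most of the sum in each KO library. *Cacna1h* and *Cacna2d2* are highest in WT replicate 2, which has the highest atrial sum at 30536, as is *Cacna1c* at 16658, although its WT libraries span only 15052 to 16658. Among the KO libraries, *Cacna1h* is lowest in replicate 2, which has the highest KO sum.

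The Cacng genes held the largest fall and mostly silent members. *Cacng6*, a gamma subunit found in muscle (chromosome 7, 3424195 to 3435667, plus strand), had 2, 0, 0 and 1 read pairs in KO, against 30, 57, 49 and 40 in WT. Scaled by the size factors, the ratio of KO to WT was 0.00762 with an exact Poisson 95% interval of 0.00156 to 0.0227, which covers counting error only (limma-trend adjusted p = 7.6e-07). Its neighbour *Cacng7*, a partner of AMPA receptors in brain that is separated from it by *Cacng8* (gaps of 22.5 and 8.55 kb), ranged from 40.4 to 56.4 in KO and 25.9 to 46.6 in WT. *Cacng7* was not called (0.39, 95% interval -0.08 to 0.87, limma-trend adjusted p = 0.138), and with equal totals of nuclear genes it passed (0.62, adjusted p = 0.0295). Per kilobase, *Cacng7* made up 85.7% ± 6.14 of the family in KO and 30.1% ± 9.0 in WT. That share follows mostly from the smaller family sum, which was 23.2 per kilobase in KO and 50.9 in WT. *Cacng7* itself stood at 19.7 per kilobase in KO and 15.1 in WT.

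The other 14 members were under the mean of 10 and untested. *Cacng2*, *Cacng3* and *Cacng5* had no read pair in any library. The retinal L-type pore *Cacna1f* had 14 read pairs over the KO libraries (3, 8, 3 and 0) and none in WT. *Cacng8* had 15 (2, 8, 0 and 5) and none. Against a floor of 3 reads over the WT group, these totals give ratios of 2.09 and 2.24. Deeper sampling of nuclear genes in KO is taken into account in these ratios, but counting error of the KO reads is not. Only 3 KO libraries held reads of each gene, so the groups overlapped. *Scn9a* with 4 and *Cacng4* with 3 read pairs in KO were also without a read in WT. *Scn1a*, *Scn8a*, *Scn11a*, *Cacna1b*, *Cacna1i*, *Cacna2d4* and *Cacng1* had 4 to 30 read pairs over the KO libraries and 3 to 17 over the WT libraries.

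Ratios between subunits were taken within a library, on normalised counts + 1, so they depend little on the scale between libraries except where a gene is near 0. In all, 10 such ratios were tested with an exact permutation test over the 70 ways to assign the libraries (two-sided, smallest possible p = 0.0286, adjusted over the 10 pairs), of which 5 are reported. Relative to *Cacna1c*, *Cacng7* was 1.56 log2 units higher in KO, *Cacng6* differed by -4.36, and *Cacna2d1* by -0.43. Because *Cacng6* reached the mean of 10 only through WT, its ratio is a description and adds no support to its fall. The *Cacng7* value holds mostly the fall of *Cacna1c* (-1.16), because *Cacng7* itself was not called (0.39). The size of the *Cacng6* value depends on the pseudocount, because KO replicates 2 and 3 had no reads of this gene, and it was -5.07 with a pseudocount of 0.5 and -1.66 with 10 (exact permutation adjusted p = 0.0408 with each). In each of these 3 pairs the 4 KO libraries lay on 1 side of the 4 WT libraries (exact permutation p = 0.0286, adjusted p = 0.0408). *Cacnb2* relative to *Cacna1c* differed by -0.42, with -2.89 ± 0.61 in KO and -2.47 ± 0.10 in WT (exact permutation p = 0.229, adjusted p = 0.254). That pair passed without KO replicate 3 (-0.69, exact permutation adjusted p = 0.0357). *Cacna1h* relative to *Cacna1g* differed by -0.30 (exact permutation p = 0.371, adjusted p = 0.371).

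**Figure D5:**
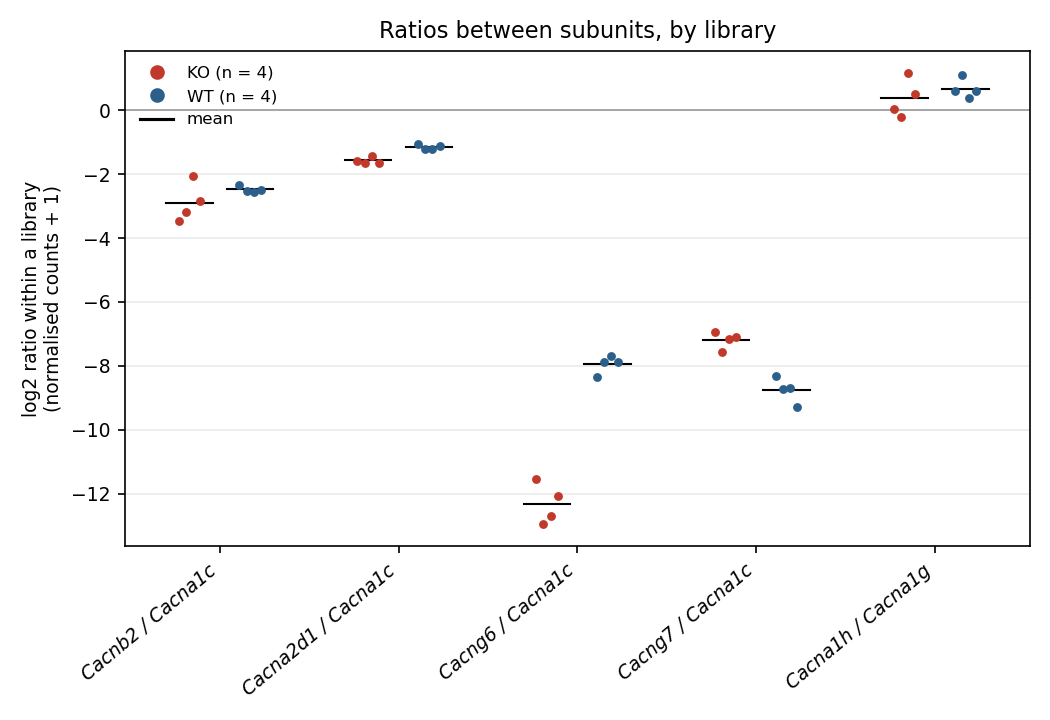
Log2 ratio of 2 subunits within a library (y axis, normalised counts + 1) for 5 pairs, with 4 KO and 4 WT libraries each and a line at the mean. *Cacng6* to *Cacna1c* averages -12.3 in KO, a value that depends on the pseudocount, and -7.95 in WT. *Cacng6* reached a mean normalised count of 10 only through WT. *Cacng7* to *Cacna1c* averages -7.20 in KO and -8.75 in WT. Neither ratio overlaps between the groups, although the counts of *Cacng7* itself do.

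Proteins that bind or regulate the channels were examined as lists. Their counts stand beside 30.7% higher and 28.4% lower among all genes tested, whose median log2 difference was 0.02. Of 18 sodium channel partners, all tested, 3 were higher and 11 lower in KO, with a median log2 difference of -0.32, and with equal totals of nuclear genes 5 were higher and 6 lower. *Fgf14*, a fibroblast growth factor homologous factor that binds the tail of the pore, averaged 14.1 ± 4.91 in KO and 110 ± 13.4 in WT (-2.95 ± 0.28, limma-trend adjusted p = 6.69e-06). *Tcap*, a titin-binding protein of the Z-disc (-2.61 ± 0.22), and *Fgf13* (-0.82 ± 0.07) were also lower. The desmosomal *Pkp2* (0.54 ± 0.10) and the 14-3-3 protein *Ywhah* (0.44 ± 0.06) were higher.

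Among 17 tested of 20 calcium channel partners, 5 were higher and 7 lower, with a median of -0.11. Among all genes tested 30.7% were higher and 28.4% lower, so the share higher was near that of all genes. *Prkaca*, the catalytic subunit of protein kinase A that raises the L-type current, averaged 2223 ± 138 in KO and 4763 ± 183 in WT (-1.10 ± 0.06, limma-trend adjusted p = 1.19e-07). Its anchoring proteins *Akap5* (-1.96 ± 0.56) and *Akap7* (-0.86 ± 0.09) were lower too. *Akap5* spread widely in KO (238, 167, 28.0 and 47.9), against 286 to 375 in WT. *Tmem37*, a gamma-like subunit (1.17 ± 0.29), *Sri*, which encodes the calcium-binding sorcin (0.94 ± 0.15), and *Bin1*, which shapes T-tubules (0.83 ± 0.13), were higher. Of 4 tested channels related by structure, *Unc80* of the sodium leak channel complex (-2.19 ± 0.52) and the endolysosomal *Tpcn1* (-0.47 ± 0.12) were lower and *Tpcn2* (0.60 ± 0.11) was higher.

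RefSeq promoter windows were found for 30 of the 40 members, with 41 start sites. In the 250 bases before the start, on either strand, the E-box CAGCTG occurred in 11 of the 41 windows, at 10 genes, among them *Cacnb2*, *Scn7a* and *Cacna1s*, and in 13% of all 32851 promoters. The M-CAT element CATTCCT occurred in 4 of the 41 windows (*Cacna1e*, *Cacna1s*, *Cacng3* and *Scn2a*) and in 4.51% of all promoters. The C/EBP-ATF response element TGATGNAAT occurred in none of the 41 and in 0.816% of all promoters. A match describes these letters only.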

How the data were processed

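The authors aligned paired-end TruSeq reads of 4 KO and 4 WT hearts to mm10 with HISAT2 2.10, retained primary alignments in proper pairs, and counted pairs per gene and strand with featureCounts 1.6.3, using Ensembl GRCm38 genes and an in-house annotation of mtDNA (tools and versions from the study's methods and the submitters' processing notes). What they deposited is a normalised signal, that is, gene counts after division by the DESeq2 1.18.1 size factor of the library (R 3.5.1). The table also deposited the authors' own DESeq2 fold changes and p-values, which were not used. A value of 1 read pair gave back whole reads for 100% of the values above 0 in each library (tolerance 0.01), with totals of 27429878 to 40715847 pairs; counts of 0 and Poisson intervals cover counting error only, at a floor of 3 reads and a level of 95%.

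Groups came from the sample labels. Nothing used here says how the animals were paired, and p-values measure only the spread between these 8 samples. The normalised counts were tested with limma-trend (limma 3.58.1, R 4.3.3) on log2(value + 1) for 17046 genes with a mean of at least 10, with genotype as the only term, two-sided, and Benjamini-Hochberg adjustment at 0.05. The pseudocount understates the change of low genes. The script was tested on simulated data first. Alternatives were edgeR 4.0.16 and DESeq2 1.42.0 on recovered reads, other scalings, pseudocounts, filters, a replicate block and leaving out each library. Settings relative to the median shift of all genes were added after the data were seen. Exonic lengths are unions of GENCODE M21 exons on GRCm38, in which all 40 members have the deposited position. Promoter sequences are from RefSeq.

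Values of every library are given for members called with an absolute log2 difference of at least 1 and, whatever their outcome, for *Scn4b*, *Cacna1c*, *Cacnb2*, *Cacna2d1* and *Cacng6*, with up to 3 called genes in each direction for each of 3 partner lists. Some items are not reported here, although counts over all members and lists include them. Other values per library were added where a result turned on them. The members and lists were chosen with earlier results of these data known, so counts over them are descriptions. Of 10 marker lists, mural cells had 2 of 8 markers higher and 4 lower, and endothelial cells 3 of 6 lower. Among all genes tested, 30.7% were higher and 28.4% lower.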

Additional observations from a re-analysis of the deposited data

Results flagged for a closer look

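In 72 groups of 4 libraries (26 members and 10 ratios in each genotype), 2 held a library whose gap to its nearest neighbour took up more of the range than Dixon's 95% critical value for 4 samples allows, and chance gives this in about 1 of 20 groups. *Cacna1d* stood at 251 normalised counts in WT replicate 2, with the other 3 WT libraries between 165 and 166 (gap over range 0.995). *Scn4a* stood at 142 in KO replicate 3, with the other 3 KO libraries between 75.0 and 82.8 (0.884), far below the WT range of 1267 to 1703.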

How the results depend on the processing

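All 18 called members kept their call and direction with pseudocounts of 0.5 and 10, without a filter, with edgeR, DESeq2 and TMM, and with equal nuclear totals. They also kept them relative to the median shift, which returns to the scale of the size factors and so does not test it. A mean of at least 50 left 14 of the 18 in the test, all called. With equal library totals, unshifted, 15 members were higher and 8 lower, against 16 and 2 sodium channel partners, 16 and 0 calcium channel partners and 3 and 0 related channels. That setting reversed *Cacna1c* (0.28), *Cacna1a* (0.98), *Cacna1d* (1.43), *Cacna1e* (1.16), *Cacnb4* (1.20), *Scn2a* (1.13), *Scn2b* (1.33) and *Scn3a* (0.93), and *Cacna1g*, *Cacnb2* and *Scn10a* lost their call. With equal nuclear totals 5 sodium channel partners were higher and 6 lower and 1 related channel was lower, as was 1 with a mean of at least 50. The sign of uncalled members near 0 turned for *Cacna1d* (0.22), *Cacna1e* (0.044), *Cacnb4* (0.0090) and *Scn2b* (0.19) with equal nuclear totals. *Cacna1d* turned with library totals relative to the shift (0.012), TMM (0.025), edgeR (0.0094) and DESeq2 (0.012), and *Scn2b* with library totals relative to the shift (0.00017), TMM (0.0092), a pseudocount of 10 (0.0035), edgeR (0.098) and DESeq2 (0.093). The cause was not tested.

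Leaving out 1 library gave 4 to 5 members higher and 13 to 14 lower, and 1 to 2 related channels higher, with 2 without KO replicate 1. *Cacna1a* passed without KO replicate 1 (-0.64, limma-trend adjusted p = 0.0255) and *Scn3a* without KO replicate 3 (-0.72, adjusted p = 0.0204). Log2 differences then ranged from -0.21 to 0.14 for *Cacna1d*, -0.43 to 0.10 for *Cacna1e*, -0.43 to 0.11 for *Scn2a* and -0.35 to 0.23 for *Scn2b*. The ratio of *Cacnb2* to *Cacna1c* ranged from -0.69 to -0.23.

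Samples of the same replicate number did not deviate together (correlations of 0.04, -0.07, 0.01 and -0.04). These correlations cannot exclude that the samples were paired by number. The replicate block changed no call of a member. For ratios a block allows no p below 0.125, and the 3 called pairs reported (-0.43, -4.36 and 1.56) had an adjusted p of 0.179 by exact permutation within the block. Depth limits the 14 untested members, and WT more than KO.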

Other observations

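Members that lie side by side on a chromosome did not always share a call, and the differences between neighbours were not tested. *Scn4b* was lower in KO while *Scn2b*, 8.33 kb away on chromosome 9, was not called, and *Cacng6* was lower while *Cacng7*, on the same stretch of chromosome 7, was not. Summed per kilobase, T-type pores stood at 44.6 ± 9.45 in KO and 174 ± 32.7 in WT and alpha2delta subunits at 200.3 ± 9.81 in KO and 619 ± 32.2 in WT (SD, n = 4).

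Libraries of a genotype differed in which members were high. KO replicate 1 was the highest KO library for 12 of 26 tested members and KO replicate 3 the lowest for 10, while KO replicate 3 was the highest for *Cacnb2*, *Cacna1d*, *Scn3a*, *Scn4a*, *Scn4b* and *Scn2b*. In WT, replicate 2 was the highest for 9 members and the lowest for 1, and replicate 3 was the lowest for 10.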
